A study of Mus musculus with 6 samples.

Results

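Isoform usage was described for 54 mouse genes in duodenal crypt organoids given BMP2 (bone morphogenetic protein 2). The total transcript level of these genes, as computed from their listed isoforms, stayed within a narrow window while the share of single isoforms changed. Duodenal crypt organoids are epithelial cultures grown from the stem cell compartment of the upper small intestine. Both groups were wild-type C57BL/6 organoids, and on day 6 they received either vehicle or 100 ng/ml BMP2 for 24 h. Each group had 3 libraries, and separate cultures or animals are not stated for them in the labels, so the q-values measure only the spread between these libraries, which may be technical. The study looked for isoform switches between the groups, and its table lists 302 isoforms of 202 genes that passed the authors' thresholds, each with a mean per condition.

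The members were chosen from these measured values. The level of a gene in a condition was taken as the summed abundance of its listed isoforms, in TPM (transcript abundance scaled for length and library size), divided by their summed usage, the share of the gene's transcripts that an isoform holds. Of 202 genes, 195 had such a level in both conditions, and 62 had a log2 ratio of BMP2 to vehicle from -0.5 to 0.5, which is at most 1.41-fold either way. From these, 8 were set aside by name, since the rule also drops 16 named genes, and 54 genes with 84 listed isoforms remained. The level and the usage come from the same contrast, so every value of the members is a description, and no test was made on them. The q-values given are those of the authors' deposited table, in which all 302 isoforms had q under 0.05 and a usage difference over 0.1.

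The table gives means only, so no spread between libraries can be stated, the depth is unknown, and the q-value is the sole measure of error beside a value. None of 45 marker genes in 11 cell type lists, among them *Epcam*, *Vil1*, *Lgr5* and *Ptprc*, was among the 202 genes, so the labelled tissue could not be checked from these values. In RNA from mixed organoids, another mix of cells and another isoform choice within cells cannot be told apart.

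BMP ligands bind serine/threonine kinase receptors that activate SMAD transcription factors, and in the gut BMP signalling is strongest outside the crypt, where it limits stem cell renewal and favours maturation of villus cells. A gene makes several isoforms by starting transcription at another promoter, by splicing in or leaving out an exon, or by ending at another site. Such a choice can change the protein, give a transcript with a retained intron or without a long reading frame, or give one that nonsense-mediated decay removes, all at the same total level. The *Ptpn6* gene is a textbook case of promoter choice: a promoter farther upstream is used in epithelial cells and a promoter closer to the coding exons in blood cells.

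The structures are shown first, for members in which a short stretch shows how the lost and the gained isoform differ in the annotation. Sequences and coordinates come from GENCODE M21 on GRCm38, printed in the direction of the gene. In *Papln*, *Wwp2* and *H2-Aa*, the lost isoform holds a coding exon whose length is a multiple of the codon and which the gained isoform lacks.
Papln-202, exon 12 of 28, 66 bases, chr12:83775849-83775914, plus strand: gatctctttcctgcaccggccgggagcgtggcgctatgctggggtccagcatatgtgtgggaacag
Wwp2-201, exon 5 of 24, 138 bases, chr8:107483332-107483469, plus strand: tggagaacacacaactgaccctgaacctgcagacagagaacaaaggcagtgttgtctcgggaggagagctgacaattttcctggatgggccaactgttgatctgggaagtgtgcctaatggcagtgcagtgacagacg
H2-Aa-201, exon 2 of 5, 249 bases, chr17:34284288-34284536, minus strand: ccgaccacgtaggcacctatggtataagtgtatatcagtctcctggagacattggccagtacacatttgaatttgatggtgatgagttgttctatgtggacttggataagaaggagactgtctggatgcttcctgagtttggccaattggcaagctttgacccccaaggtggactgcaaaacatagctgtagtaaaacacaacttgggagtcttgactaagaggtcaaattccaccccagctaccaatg

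In *Clasrp*, the gained isoform, annotated as a target of nonsense-mediated decay, has an exon that runs 4 bases further (capitals), a length that is not a multiple of the codon. In *Lsm4*, the gained isoform starts inside an intron of the lost one and reads through into its next exon (capitals mark the first 20 bases of that exon, lower case the 113 intron bases).
Clasrp-209, exon 15 of 21, 44 bases, chr7:19584780-19584823, minus strand: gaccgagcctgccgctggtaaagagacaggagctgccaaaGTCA
Lsm4-203, from exon 1 of 2, chr8:70677665-70677797, plus strand: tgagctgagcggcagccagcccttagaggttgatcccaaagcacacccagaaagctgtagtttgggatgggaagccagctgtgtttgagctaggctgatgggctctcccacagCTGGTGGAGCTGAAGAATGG

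In *Nt5c3*, the lost and gained isoforms begin their coding sequence in different exons, so the start of the protein differs. In *Samhd1* they end it in different exons. The coding part of each of these exons is given.
Nt5c3-201 (lost), the first coding exon, chr6:56923672-56923809, minus strand: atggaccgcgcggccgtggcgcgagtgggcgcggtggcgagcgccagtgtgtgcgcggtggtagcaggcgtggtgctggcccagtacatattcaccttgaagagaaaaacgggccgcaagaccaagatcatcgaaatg
Nt5c3-202 (gained), the first coding exon, chr6:56897775-56897810, minus strand: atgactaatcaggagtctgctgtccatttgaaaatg
Samhd1-201 (lost), the last coding exon, chr2:157099402-157099503, minus strand: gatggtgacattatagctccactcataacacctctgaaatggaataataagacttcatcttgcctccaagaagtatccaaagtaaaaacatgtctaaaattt
Samhd1-206 (gained), the last coding exon, chr2:157101363-157101443, minus strand: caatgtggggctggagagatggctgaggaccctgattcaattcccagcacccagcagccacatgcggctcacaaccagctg

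For *Nt5c3*, *Ptpn6* and *Tnk2*, the gained isoform starts elsewhere than the lost one, and RefSeq (GRCm38.p6) has a promoter window within 5 bases of that start. The 150 bases before the RefSeq start are printed, with matches to GGAGCC on either strand in capitals. GGCGCC and GGAGCC were searched on both strands, since SMAD proteins bind GC-rich motifs of this kind.
Nt5c3-202, chr6:56901887-56902036, minus strand: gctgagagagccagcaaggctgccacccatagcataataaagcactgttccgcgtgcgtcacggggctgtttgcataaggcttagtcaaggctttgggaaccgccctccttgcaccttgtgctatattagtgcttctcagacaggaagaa
Ptpn6-203, chr6:124738710-124738859, minus strand: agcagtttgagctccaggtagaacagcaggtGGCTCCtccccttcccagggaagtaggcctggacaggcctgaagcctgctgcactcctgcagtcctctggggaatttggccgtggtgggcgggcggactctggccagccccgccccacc
Tnk2-201, chr16:32673004-32673153, plus strand: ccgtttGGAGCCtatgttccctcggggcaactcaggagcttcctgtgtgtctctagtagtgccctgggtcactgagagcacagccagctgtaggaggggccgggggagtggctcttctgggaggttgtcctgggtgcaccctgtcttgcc
The *Ptpn6* window held 1 match to GGAGCC (on its reverse strand) and the *Tnk2* window 1, the *Nt5c3* window held none, and GGCGCC was in none of these windows. Of 32851 promoter windows of the same length, 17.9% held GGAGCC and 7.01% held GGCGCC. A match is a description of these letters, not a site of binding.

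Among the 84 member isoforms, 43 rose in usage (51.2%) and 41 fell (48.8%). Of all isoforms listed by the authors, 45.0% rose and 55.0% fell. The median absolute usage difference was 18.2 percentage points in the members, from 10.1 to 45.0, and 20.45 points in the 218 isoforms of the other 148 genes, where it reached 75.1. A difference over 20 points was present in 34 member isoforms (40.5%), against 50.7% of the table. The authors' q was under 0.01 for 61 (72.6%), near the 73.5% of the table, and ran from 8.36e-18 to 0.0470 in the members. These shares were set side by side and not tested.

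In 27 of 54 members (50%), at least 1 listed isoform rose and another fell, against 44.6% of the genes of the table. The most used listed isoform differed between vehicle and BMP2 in 9 of these 27 (33.3%), against 41.1% of such genes in the table. The 9 were *Nt5c3*, *Rgs3*, *Sdccag8*, *Vasn*, *Zfp955b*, *Clasrp*, *Wwp2*, *Samhd1* and *Prepl*. Of these, 8 lie in the outer part of the level window: with log2 ratios from -0.25 to 0.25, the most used listed isoform differed in 1 of 11 members, *Vasn*. In 8 of the 9 the usage left to unlisted isoforms was too small for any of them to rank higher. The exception was *Clasrp*, whose listed isoforms held under 50% of usage in each condition. The other 27 members had a single listed isoform, which rose in 15 genes and fell in 12.

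**Figure D1:**
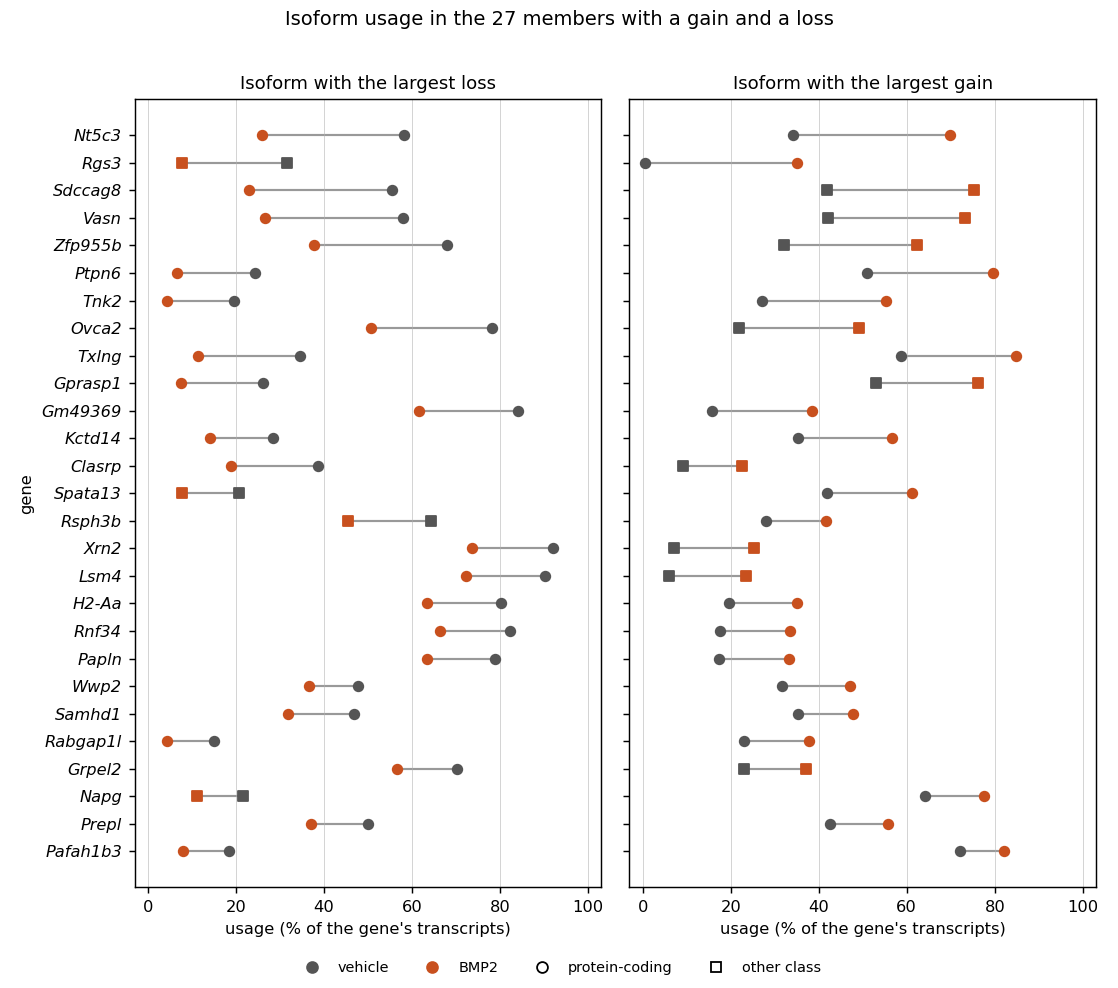
Usage (percent of the gene's transcripts, x axis) of the most strongly lost and the most strongly gained listed isoform in each of the 27 members with both (y axis: gene), in vehicle and BMP2, as the authors' means per condition with no error bars. Squares mark isoforms without a protein-coding annotation; among the members, *Nt5c3* moved from 58.1% to 25.9% for its lost isoform and from 34.1% to 69.9% for its gained one.

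The implied level of the members ran from 1.18 to 177 TPM in vehicle (median 14.2) and from 1.06 to 168 TPM in BMP2 (median 13.6). It was higher in BMP2 in 32 members and lower in 22, with a median log2 ratio of 0.11. In 9 of 54 members it was under 5 TPM in a condition, against 62 of the 195 genes of the table with a level. The highest in vehicle were *Pafah1b3* (177 TPM in vehicle, 168 TPM in BMP2), *Bdh1* (156 and 147 TPM), *Kctd14* (133 and 109 TPM), *Lsm4* (128 and 95.4 TPM) and *Ssbp3* (47.5 and 53.0 TPM). Where a gene had several listed isoforms, the level could be computed from each isoform with at least 5% of usage. In the 27 such genes the spread between these isoforms in vehicle had a median of 0.461% of the level and reached 4.26%. Usage is itself a share of the gene's total, so a small spread is built in and does not check the level. What remains is rounding and averaging. The other 27 members have 1 listed isoform, so their level rests on its abundance and usage alone, with no second value even of this kind. That usage was as low as 3.9% with vehicle (*Foxp1*) and 2.4% with BMP2 (*Tbc1d14*). Listed isoforms held a summed usage fraction of at least 0.2 in both conditions in 39 of 54 members.

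The window cuts through a continuous range of levels. Just inside it were *Gprasp1* (log2 ratio -0.50) and *Yif1b* (-0.48) at the lower end, and *Iqcc* (0.47) and *Wwp2* (0.50) at the upper end. Just outside it were *Acss3* (-0.56), *Pfdn4* (-0.55), *Ift172* (0.51) and *Serf2* (0.53).

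**Figure D2:**
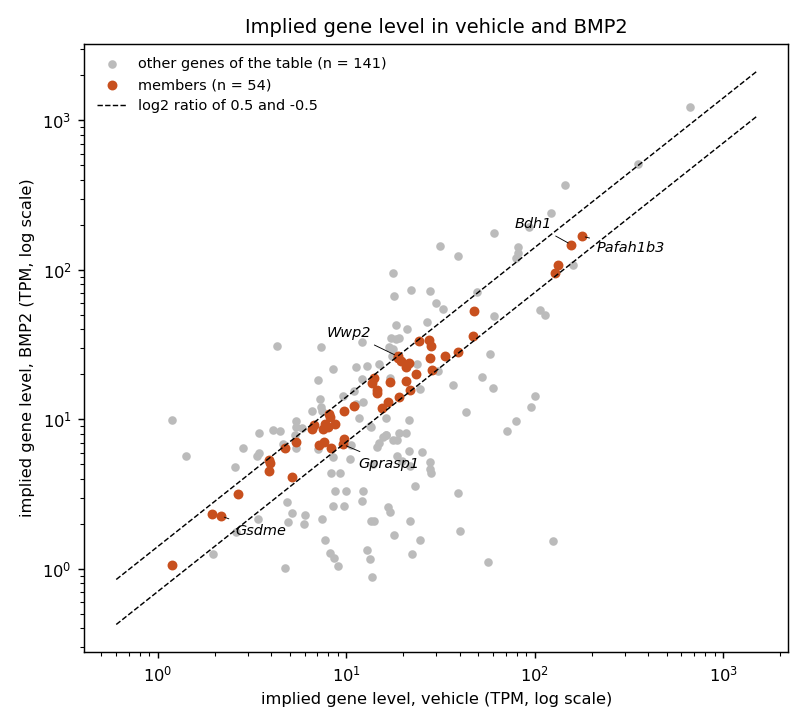
Implied gene level in vehicle (x axis) and in BMP2 (y axis), both in TPM on log scales, for the 54 members and the 141 other genes with a level, as means per condition with no error bars. The members lie between the dashed lines at log2 ratios of -0.5 and 0.5 because the rule placed them there.

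Genes of signalling and GTPase regulation formed a group of 10 members with 19 listed isoforms, of which 9 rose and 10 fell. *Rgs3* encodes a regulator of G protein signalling that speeds GTP hydrolysis by G alpha subunits, and it had 5 listed isoforms, the most of any member. Its coding isoform Rgs3-204 had a mean abundance of 0.109 TPM with vehicle and 8.54 TPM with BMP2, and rose from 0.6% to 35.1% of usage (q = 9.76e-06 in the authors' deposited table). Rgs3-206 rose from 16.4% to 38.2% (q = 1.54e-08 in the authors' deposited table), with 3.21 TPM with vehicle and 9.33 TPM with BMP2. Its model lacks an annotated end. The other three isoforms fell. Rgs3-214, which retains an intron, went from 31.6% to 7.7% (q = 0.000132 in the authors' deposited table), coding Rgs3-203 from 25.7% to 4.7% (q = 4.53e-11), and Rgs3-209, with a retained intron, from 13.8% to 2.0% (q = 9.68e-16). All of the lost isoforms start upstream of both gained ones in the gene (chr4:62559847-62704001, plus strand), and the starts of Rgs3-214 and Rgs3-204 are 39661 bases apart. The implied level of *Rgs3* was 19.5 TPM with vehicle and 24.4 TPM with BMP2.

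*Ptpn6* encodes SHP-1, a tyrosine phosphatase that dampens receptor signalling. Its isoform from the downstream start, Ptpn6-202, had 4.17 TPM with vehicle and 1.19 TPM with BMP2, and fell from 24.4% to 6.6% of usage (q = 0.000413 in the authors' deposited table). The isoform from the upstream start, Ptpn6-203, had 8.59 TPM and 14.1 TPM and rose from 50.9% to 79.6% (q = 0.0338 in the authors' deposited table). The starts lie 5560 bases apart (gene at chr6:124720707-124738714, minus strand), while the isoforms end at the same base and share 15 exons. Their coding sequences are 1785 and 1791 bases long, so the annotation changes only the beginning of the protein. The upstream isoform was the more used in both conditions. Both overlap the opposite-strand gene Gm20531 over 8.8% of their exonic bases, and reads from the 2 genes cannot be told apart where counting ignores strand, which is not stated.

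*Tnk2* encodes ACK1, a tyrosine kinase that binds active Cdc42. The long Tnk2-204, with 3120 coding bases, had 2.81 TPM with vehicle and 0.667 TPM with BMP2, and fell from 19.5% to 4.4% of usage (q = 1.25e-05 in the authors' deposited table). Tnk2-201 starts 28330 bases downstream, has 1650 coding bases, and rose from 27.2% to 55.4% (q = 0.000981 in the authors' deposited table), with 3.94 TPM and 8.32 TPM. The isoforms end 1 base apart and share 5 exons (gene at chr16:32643874-32683493, plus strand). Thus, of the listed pair, the gained isoform has the shorter coding sequence. Together the pair held 46.7% of usage with vehicle and 59.8% with BMP2, so the share of unlisted isoforms fell too, and their coding lengths were not examined. The implied level of *Tnk2* was 14.4 TPM with vehicle and 15 TPM with BMP2.

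Regulators of small GTPases also changed. Dab2ip-201, of a Ras GTPase-activating protein, rose from 32.1% to 55.7% of usage (q = 0.000803 in the authors' deposited table). Tbc1d14-221, of a Rab GTPase-activating-domain protein that limits autophagy, fell from 20.8% to 2.4% (q = 0.0196 in the authors' deposited table), with 5.08 TPM with vehicle and 0.798 TPM with BMP2. For *Rabgap1l*, another gene of this family, the short Rabgap1l-209 fell from 15.1% to 4.3% (q = 0.0166 in the authors' deposited table) and the long Rabgap1l-201 rose from 23.1% to 37.7% (q = 0.000443). Rabgap1l-209 lacks an annotated start and end, and 5.2% of Rabgap1l-201 overlaps the opposite-strand gene Gm36975. *Spata13* encodes a guanine nucleotide exchange factor for Rac and Cdc42. Its noncoding Spata13-202 fell from 20.7% to 7.7% (q = 4.83e-06 in the authors' deposited table), and coding Spata13-210 rose from 41.8% to 61.3% (q = 0.0261).

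The other three genes of this group involve receptors or stress signals. *Gprasp1* encodes a protein that sorts G protein-coupled receptors to lysosomes. Coding Gprasp1-206 fell from 26.1% to 7.5% (q = 0.0175 in the authors' deposited table), with 2.49 TPM with vehicle and 0.518 TPM with BMP2. The noncoding Gprasp1-205 rose from 53.1% to 76.3% (q = 0.000179 in the authors' deposited table) while its abundance was 5.10 TPM and 5.17 TPM, and 44.8% of it overlaps *Armcx5* on the same strand. Grin1-204, of an NMDA receptor subunit best known from neurons, fell from 27.8% to 10.9% (q = 0.00244 in the authors' deposited table), and 30.6% of it overlaps the antisense gene *Grin1os*. Ppp1r13l-201, of the p53 inhibitor iASPP, rose from 72.4% to 95.6% (q = 2.19e-08 in the authors' deposited table). Its abundance was 5.99 TPM with vehicle and 6.17 TPM with BMP2, while the implied level of *Ppp1r13l* was 8.28 TPM and 6.45 TPM.

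Genes of RNA processing and translation numbered 5, with 5 isoforms that rose and 3 that fell, and 3 of them had a lost and a gained isoform. In these, *Lsm4*, *Xrn2* and *Clasrp*, the lost isoform was coding and the gained one retained an intron or was annotated as a decay target. Over the table, 27 of 87 pairs (31.0%) moved from coding to any other class, a wider measure that also counts processed transcripts. On that wider measure, 9 of the 27 member pairs (33.3%) did so. The narrower measure was not counted over the table, so these 3 pairs have no matching share beside them. *Lsm4* encodes a subunit of the Lsm ring that binds U6 RNA in the spliceosome and takes part in mRNA decay. Coding Lsm4-201 had 116 TPM with vehicle and 69.0 TPM with BMP2, and fell from 90.2% to 72.3% of usage (q = 3.36e-11 in the authors' deposited table). Lsm4-203, the 375-base model with the retained intron printed above, had 7.54 TPM and 22.3 TPM and rose from 5.9% to 23.4% (q = 0.00612 in the authors' deposited table). The coding isoform was the more used in both conditions (gene at chr8:70673248-70678752, plus strand).

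*Xrn2* encodes a nuclear exonuclease that ends transcription by degrading the RNA behind the polymerase, and its values ran alongside those of *Lsm4*. Coding Xrn2-201 had 43.0 TPM with vehicle and 26.6 TPM with BMP2, and fell from 92.1% to 73.7% (q = 0.0178 in the authors' deposited table). Xrn2-203, a 335-base model with a retained intron, had 3.38 TPM and 9.35 TPM and rose from 7.2% to 25.2% (q = 0.0213 in the authors' deposited table). *Clasrp* encodes a serine/arginine-rich protein that interacts with a CLK kinase of splicing factors. Clasrp-201 fell from 38.6% to 18.9% (q = 6.43e-06 in the authors' deposited table), with 5.38 TPM and 3.56 TPM, and the decay-annotated Clasrp-209 rose from 9.2% to 22.6% (q = 0.0142), with 1.29 TPM and 4.25 TPM. Apart from the exon printed above, 18 of their 21 exons are the same, and the coding sequence shortens from 2004 to 1764 bases (gene at chr7:19581035-19604486, minus strand). The remaining pair each had 1 listed isoform. Eif4enif1-202, of the protein that carries the cap-binding factor eIF4E to the nucleus, rose from 6.1% to 29.5% (q = 0.00116 in the authors' deposited table), and Trmt10b-206, of a tRNA methyltransferase, from 6.5% to 23.0% (q = 0.0233). The Trmt10b-206 model lacks an annotated end.

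Transcription and chromatin genes were the largest group, with 11 members and 12 listed isoforms, 7 up and 5 down, and almost all of them had a single listed isoform. The exception was *Zfp955b*, a zinc finger gene in which Zfp955b-201 fell from 67.9% to 37.7% (q = 0.000158 in the authors' deposited table) and the 330-base noncoding Zfp955b-202 rose from 32.1% to 62.3% (q = 0.00016). They had 2.67 and 1.27 TPM in vehicle and 1.90 and 3.22 TPM in BMP2, so the order of the isoforms differs between the conditions at a low level. Of Zfp955b-201, 12.2% overlaps the opposite-strand pseudogene *Zfp422-ps*.

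Single isoforms that rose came from several kinds of regulators. Ncoa7-201, of a nuclear receptor coactivator, rose from 19% to 51.8% (q = 0.000927 in the authors' deposited table), with 0.738 TPM with vehicle and 2.78 TPM with BMP2. Rcor3-201, of a CoREST family corepressor, rose from 4.3% to 23.9% (q = 4.46e-05 in the authors' deposited table), and 17.8% of it overlaps the opposite-strand gene Gm26879. Pias1-205, of a SUMO ligase, rose from 11.9% to 31.5% (q = 0.000282 in the authors' deposited table). Zkscan14-201, of a zinc finger protein, rose from 81.6% to 95.6% (q = 0.0111 in the authors' deposited table). Arid4b-208, an isoform of a chromatin regulator annotated as a decay target, rose from 7.3% to 19.8% (q = 0.0103 in the authors' deposited table), with 0.705 TPM and 2.26 TPM. Foxp1-223, a 341-base model of a forkhead factor, rose from 3.9% to 15.7% (q = 0.0205 in the authors' deposited table), and 24.6% of it overlaps the same-strand gene Gm49348. The models of Pias1-205, Arid4b-208 and Foxp1-223 are incomplete at an end.

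Those that fell included isoforms of nuclear receptor and metabolic regulators. Rxrb-202, of the retinoid X receptor beta that pairs with other nuclear receptors, fell from 50.3% to 26.9% (q = 0.000956 in the authors' deposited table), with 14.2 TPM with vehicle and 5.77 TPM with BMP2. Nrf1-207, of nuclear respiratory factor 1, which drives genes of mitochondrial function, fell from 27.7% to 11.2% (q = 0.000413 in the authors' deposited table). Ssbp3-201, of a partner of the LDB1 complex, fell from 43.8% to 33.4% (q = 0.00148 in the authors' deposited table), with 20.8 TPM and 17.7 TPM. Zfp212-201 fell from 97.7% to 85.2% (q = 0.00226 in the authors' deposited table). These are all annotated as protein-coding, and where the share they lost went is not listed.

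**Figure D3:**
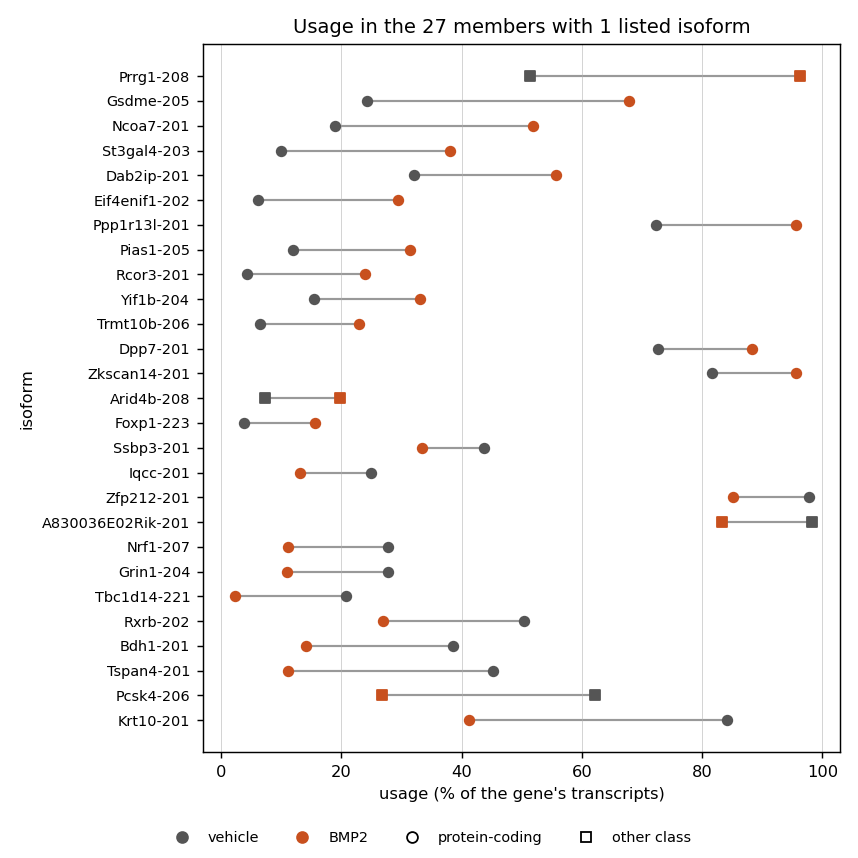
Usage (percent of the gene's transcripts, x axis) of the only listed isoform in each of 27 members (y axis: isoform), in vehicle and BMP2, as means per condition with no error bars. 15 isoforms rose and 12 fell; Prrg1-208 (51.3% to 96.2%) and Gsdme-205 (24.3% to 67.8%) have the largest gains, Krt10-201 (84.1% to 41.2%) the largest loss.

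Metabolic and mitochondrial genes numbered 6, with 5 isoforms that rose and 5 that fell. *Nt5c3* encodes a cytosolic nucleotidase that dephosphorylates pyrimidine nucleotides. Nt5c3-201 had 22.6 TPM with vehicle and 7.27 TPM with BMP2, and fell from 58.1% to 25.9% (q = 8.36e-18 in the authors' deposited table, the lowest among the members). Nt5c3-202 had 13.3 TPM and 19.6 TPM and rose from 34.1% to 69.9% (q = 7.93e-13 in the authors' deposited table). The gained isoform starts 22046 bases downstream, shares 8 exons and the end, and has 891 coding bases against 993 (gene at chr6:56882400-56923932, minus strand). The most used isoform therefore differs between the conditions, and with it the first coding exon printed above.

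*Samhd1* encodes an enzyme that breaks down deoxynucleotide triphosphates and restricts retroviruses. Samhd1-201 had 15.6 TPM with vehicle and 8.43 TPM with BMP2, and fell from 46.8% to 31.9% (q = 2.63e-05 in the authors' deposited table). Samhd1-206 had 11.7 TPM and 12.6 TPM and rose from 35.2% to 47.7% (q = 0.000142 in the authors' deposited table). They share 14 exons and differ in the last coding exon (gene at chr2:157097533-157135265, minus strand). The Samhd1-206 model lacks an annotated start, so its coding length is a lower limit.

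*Bdh1* encodes the mitochondrial enzyme that interconverts acetoacetate and 3-hydroxybutyrate, the main ketone bodies. Bdh1-201 had 60.3 TPM with vehicle and 20.8 TPM with BMP2, and fell from 38.6% to 14.1% (q = 1.21e-15 in the authors' deposited table). It is the only listed isoform of the gene (chr16:31422280-31458901, plus strand), so most of the BMP2 level of 147 TPM belongs to isoforms that are not listed. *Pafah1b3*, a catalytic subunit of an acetylhydrolase of platelet-activating factor, had the highest level of the members and their smallest difference. Pafah1b3-202 fell from 18.4% to 8.0% (q = 0.0167 in the authors' deposited table), with 32.8 TPM and 13.4 TPM. Pafah1b3-201 rose from 72% to 82.2% (q = 0.0321 in the authors' deposited table), with 128 TPM and 138 TPM.

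The last of this group are *Grpel2* and *St3gal4*. Grpel2-201, the coding isoform of a mitochondrial nucleotide exchange factor for Hsp70, fell from 70.3% to 56.6% (q = 0.00323 in the authors' deposited table), and noncoding Grpel2-202 rose from 23.0% to 37.2% (q = 0.000339). St3gal4-203, of a sialyltransferase of the Golgi, rose from 10% to 38.0% (q = 4.18e-05 in the authors' deposited table), with 0.769 TPM and 3.53 TPM. Its 613-base model lacks an annotated end.

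Of the genes of proteolysis and ubiquitin transfer, 5 were members, with 4 isoforms that rose and 4 that fell. *Wwp2* encodes a HECT ubiquitin ligase with WW domains. Wwp2-201 fell from 47.8% to 36.7% (q = 0.00747 in the authors' deposited table) although its abundance was 8.97 TPM with vehicle and 9.69 TPM with BMP2, and Wwp2-204 rose from 31.7% to 47.0% (q = 0.00986), with 5.92 TPM and 12.4 TPM. The isoforms share 21 exons, and Wwp2-204 ends 1383 bases upstream and lacks the 138-base exon printed above, whose length equals the step from 2610 to 2472 coding bases (gene at chr8:107436365-107558595, plus strand). *Rnf34* encodes a RING ubiquitin ligase that acts on caspases and p53. Rnf34-201 fell from 82.4% to 66.5% (q = 0.00594 in the authors' deposited table) and the 451-base Rnf34-202 rose from 17.6% to 33.5% (q = 0.0116). The Rnf34-202 model lacks an end, and 14.1% of Rnf34-201 overlaps *Kdm2b* on the opposite strand.

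The peptidases differed in direction. *Prepl* encodes a serine hydrolase related to prolyl endopeptidase. Prepl-202 fell from 50.1% to 37.1% (q = 0.0170 in the authors' deposited table), with 13.8 TPM with vehicle and 12.7 TPM with BMP2, and Prepl-201 rose from 42.6% to 55.7% (q = 0.000362), with 11.7 TPM and 19 TPM. These start 3 bases apart and end 1060 bases apart, and 18.5% of Prepl-201 overlaps *Slc3a1* on the opposite strand. Pcsk4-206, a retained-intron isoform of a proprotein convertase best known from germ cells, fell from 62.2% to 26.8% (q = 6.97e-05 in the authors' deposited table), with 3.36 TPM and 1.90 TPM. Dpp7-201, of a lysosomal dipeptidase, rose from 72.6% to 88.3% (q = 0.0278 in the authors' deposited table).

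Membrane, secreted and surface proteins were encoded by 9 members with 14 isoforms, 8 up and 6 down. *H2-Aa* encodes the alpha chain of an MHC class II molecule, which presents peptides to T helper cells and which gut epithelium also makes. H2-Aa-201 had 16.7 TPM with vehicle and 14.3 TPM with BMP2, and fell from 80.3% to 63.5% (q = 3.84e-05 in the authors' deposited table). H2-Aa-204 had 4.10 TPM and 7.89 TPM and rose from 19.7% to 35.0% (q = 7.32e-05 in the authors' deposited table). The gained isoform lacks the 249-base exon printed above, in these genes the exon of the peptide-binding alpha-1 domain, and its coding sequence has 519 bases against 768 (gene at chr17:34282744-34287823, minus strand). The full-length isoform remained the more used in BMP2.

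*Papln* encodes papilin, a glycoprotein of the extracellular matrix. Papln-202 fell from 78.8% to 63.5% (q = 0.00612 in the authors' deposited table) at 10.8 TPM with vehicle and 11.2 TPM with BMP2. Papln-201 rose from 17.4% to 33.3% (q = 0.00126 in the authors' deposited table), with 2.37 TPM and 5.88 TPM. They share 25 exons, and the 66-base exon printed above equals the difference of their coding lengths, 3906 and 3840 bases. *Txlng* encodes gamma-taxilin, a coiled-coil protein that binds syntaxins. Txlng-203 fell from 34.5% to 11.3% (q = 3.15e-09 in the authors' deposited table), with 2.79 TPM and 1.23 TPM, and Txlng-201 rose from 58.8% to 84.9% (q = 1.01e-09), with 4.73 TPM and 9.28 TPM. Both start at the same base, and the gained isoform ends 9999 bases downstream with 1572 coding bases against 723.

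*Vasn* encodes vasorin, a membrane protein that binds TGF-beta. Vasn-201 fell from 58.0% to 26.7% (q = 0.00473 in the authors' deposited table) and the noncoding 359-base Vasn-202 rose from 42% to 73.3% (q = 0.0035). They had 2.20 and 1.66 TPM in vehicle and 1.21 and 3.31 TPM in BMP2. Of Vasn-202, 44.6% overlaps *Dnaja3* on the same strand, and of Vasn-201 5.7%. For *Napg*, which encodes gamma-SNAP of the membrane fusion machinery, noncoding Napg-202 fell from 21.6% to 11.2% (q = 0.0338 in the authors' deposited table) and coding Napg-201 rose from 64.1% to 77.5% (q = 0.0199).

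Of the surface genes with a single listed isoform, *Prrg1* and *Gsdme* had the largest gains of the members. Prrg1-208, a retained-intron isoform of a transmembrane Gla protein, had 1.37 TPM with vehicle and 3.03 TPM with BMP2, and rose from 51.3% to 96.2% (q = 9.66e-13 in the authors' deposited table). Gsdme-205, of gasdermin E, which forms membrane pores in cell death, had 0.524 TPM and 1.53 TPM and rose from 24.3% to 67.8% (q = 6.42e-06 in the authors' deposited table). Tspan4-201, of a tetraspanin, had 2.33 TPM and 0.457 TPM and fell from 45.2% to 11.1% (q = 0.00674 in the authors' deposited table), and 19.9% of it overlaps *Chid1* on the opposite strand. Yif1b-204, of a protein of transport between endoplasmic reticulum and Golgi, rose from 15.4% to 33.1% (q = 0.0470 in the authors' deposited table, the highest among the members). Its model lacks an annotated start and end.

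Cytoskeletal and ciliary genes numbered 3, with 2 isoforms that rose and 3 that fell. *Sdccag8* encodes a centrosomal protein needed for cilia. Sdccag8-201 fell from 55.4% to 23.1% (q = 1.59e-05 in the authors' deposited table), with 3.67 TPM with vehicle and 2.08 TPM with BMP2. The noncoding 659-base Sdccag8-205, which starts 183349 bases downstream and ends at the same base, rose from 41.9% to 75.2% (q = 2.36e-06 in the authors' deposited table), with 2.86 TPM and 6.88 TPM. For *Rsph3b*, of the radial spokes of motile cilia, noncoding Rsph3b-203 fell from 64.3% to 45.6% (q = 0.00311 in the authors' deposited table) and coding Rsph3b-201 rose from 28.1% to 41.7% (q = 0.0251). Krt10-201, of a keratin of stratified skin, fell from 84.1% to 41.2% (q = 0.0213 in the authors' deposited table) at 1.64 TPM and 0.961 TPM, and 7.0% of it overlaps the opposite-strand gene Gm11940.

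The remaining 5 members had 3 isoforms that rose and 5 that fell. *Kctd14* encodes a BTB-domain protein. Kctd14-206 had 38.0 TPM with vehicle and 15.3 TPM with BMP2, and fell from 28.5% to 14.1% (q = 5.98e-10 in the authors' deposited table). Kctd14-205 starts 1899 bases downstream, had 46.6 TPM and 61.4 TPM, and rose from 35.2% to 56.6% (q = 4.99e-06 in the authors' deposited table). The Kctd14-205 isoform was thus the more used of the listed pair in both conditions (gene at chr7:97451323-97459557, plus strand). Iqcc-201 fell from 24.9% to 13.1% (q = 0.00613 in the authors' deposited table), and 8.7% of it overlaps *Tmem234* on the opposite strand.

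For the other three, another gene or a low level limits the reading. *Ovca2*, of a serine hydrolase, moved from coding Ovca2-201 (78.2% to 50.8%; q = 0.00597 in the authors' deposited table) to noncoding Ovca2-202 (21.8% to 49.2%, q = 0.00765), and *Dph1* on the same strand covers 36.3% of the first and 100% of the second. The predicted gene Gm49369 moved from Gm49369-201 (84.2% to 61.6%, q = 0.00541 in the authors' deposited table) to Gm49369-202 (15.8% to 38.4%, q = 0.00806). On the same strand, *Ctsd* covers 80.4% and 73.7% of them, and both models lack an annotated start and end. A830036E02Rik-201, an antisense transcript, fell from 98.3% to 83.3% (q = 0.0237 in the authors' deposited table) at an implied level of 1.18 TPM with vehicle and 1.06 TPM with BMP2, the lowest of the members.

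Of the 6 gene lists chosen for this tissue and treatment, with 367 genes in all, 5 genes were in the table and 1 of these was a member: *Rnf34*, of the ubiquitin and autophagy list of 68 genes, with 1 isoform up and 1 down. No gene of the BMP and SMAD pathway list (34 genes) or of the mitochondrial protein list (84 genes) was in the table. The same held for the list of intestinal transcription factors and differentiation (35 genes). The lists are not complete: the members *Bdh1* and *Grpel2* encode mitochondrial proteins and *Wwp2* a ubiquitin ligase, and none of these is on a list. A gene that is not in the table was either not tested or did not pass, and the files do not tell these apart.

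The structures of the lost and gained isoforms were compared over the 27 members with both, taking the largest loss and the largest gain. Transcription starts were over 50 bases apart in 19 and ends in 17: both in 12, only the start in 7, only the end in 5. Neither differed by that much in 3, *Clasrp*, *H2-Aa* and *Papln*, whose sequences are printed above. In the 60 such pairs of other genes, starts were over 50 bases apart in 48 and ends in 46. The gained isoform was the shorter in 19 of 27 (35 of 60 in the other genes), and the median difference in length was -159 bases (-187 bases in the other genes). Annotated coding lengths were compared where both isoforms have a coding sequence and neither model lacks a start or end, which left 11 members. The gained isoform had the shorter coding sequence in 8 of them and the longer in 3, against 11 shorter, 13 longer and 4 equal in 28 such pairs of the other genes. The 8 include *Clasrp*, whose gained isoform is annotated as a decay target, and the 3 include *Ptpn6*, longer by only 6 bases. These counts were not tested. In 8 of the 27 members, and in 11 of the 60 other pairs, the isoforms share no exon with the same bounds.

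**Figure D4:**
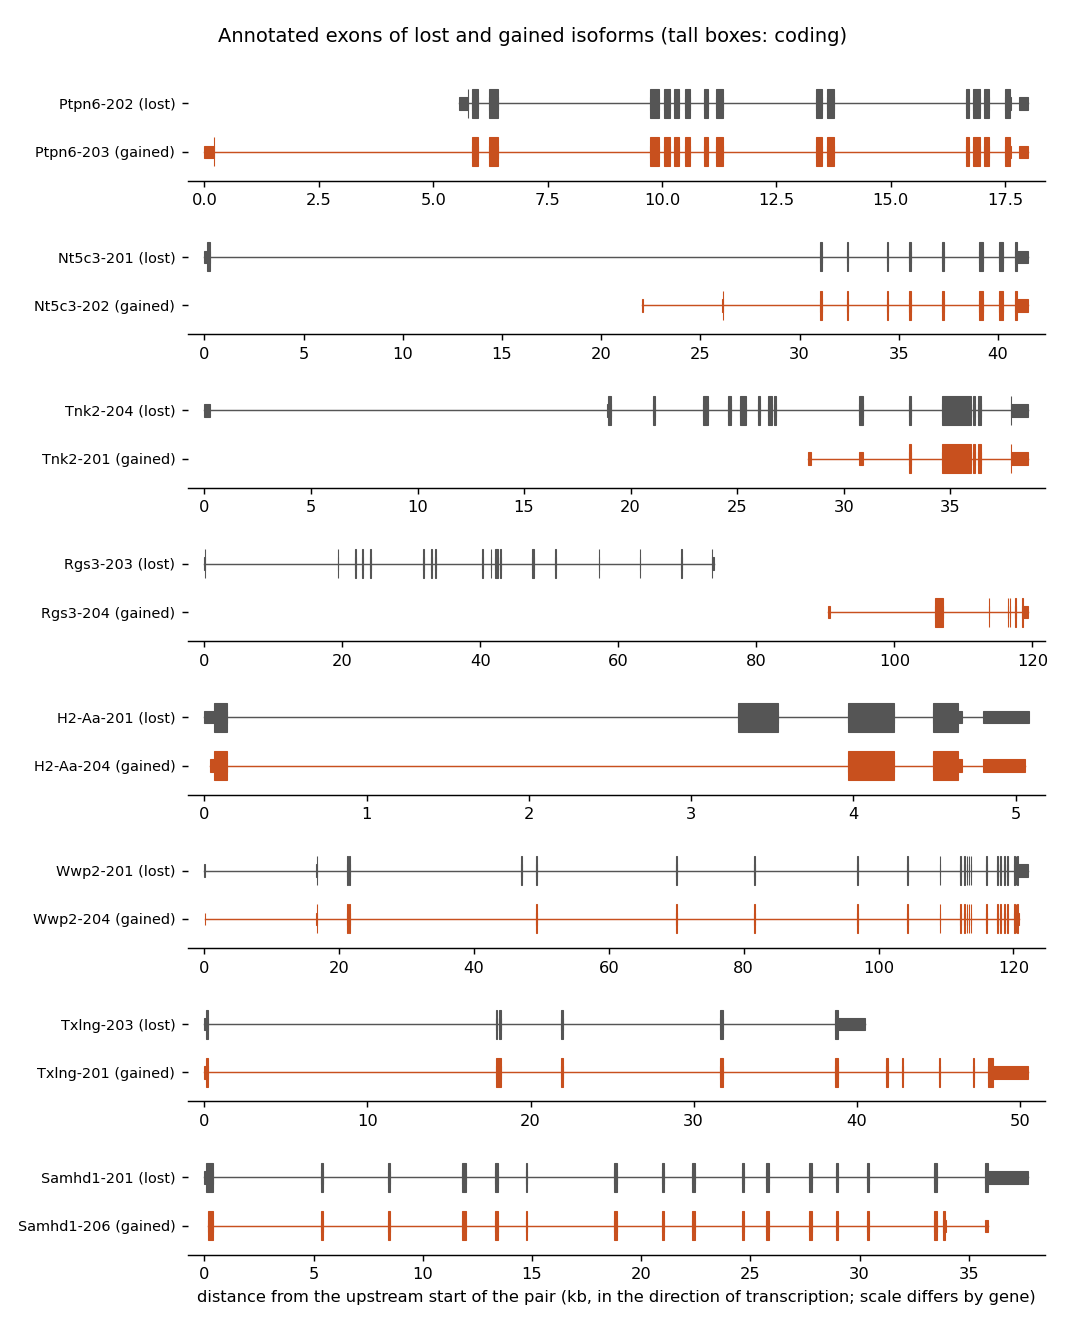
Annotated exons of a lost (upper) and a gained (lower) isoform in 8 members, by distance from the upstream start in kb along the direction of transcription; tall boxes are coding, and the scale differs by gene. The start differs in *Ptpn6*, *Nt5c3* and *Tnk2*, the end in *Txlng*, *Samhd1* and *Wwp2*, and a coding exon is missing in *H2-Aa* and *Wwp2*; in *Rgs3*, drawn with the lost coding isoform Rgs3-203 in place of Rgs3-214, the lost isoform ends before the gained one starts.

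By annotated class, 9 of 27 members (33.3%) moved from a coding isoform to another class, 4 (14.8%) moved the other way, and 14 stayed between coding isoforms. The other genes had 18 of 60 (30.0%) and 6 of 60 (10%). Without pairs in which an isoform has over 5% of its exonic bases in another gene, 18 of the 27 members remained, of which 5 moved from coding to another class and 4 the other way. From coding to another class went *Clasrp*, *Gprasp1*, *Grpel2*, *Lsm4*, *Ovca2*, *Sdccag8*, *Vasn*, *Xrn2* and *Zfp955b*, and the other way went *Napg*, *Rgs3*, *Rsph3b* and *Spata13*. Over all 84 isoforms, 32 protein-coding isoforms rose and 34 fell, 6 processed transcripts rose and 3 fell, 3 retained-intron isoforms rose and 3 fell, and 2 decay-annotated isoforms rose. Outside the members, 60 protein-coding isoforms rose and 109 fell, and 16 retained-intron isoforms rose and 5 fell. There, 7 processed transcripts rose and 7 fell, and 5 decay-annotated isoforms rose and 2 fell.

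The length and completeness of the models were counted by direction. Of the 43 isoforms that rose, 19 are under 1000 bases long, against 7 of the 41 that fell. In the other genes, with the isoforms found in the annotation, it was 26 of 89 and 21 of 124. A model with an unannotated start or end was listed in 12 of 84 member isoforms (14.3%), of which 10 rose and 2 fell, and in 16 of 213 isoforms of the other genes (7.51%), of which 11 rose and 5 fell. Exonic overlap of over 5% with another gene was present in 19 of 84 member isoforms, in 15 of 54 genes, and is given beside each value. In the other genes it was present in 54 of 213 isoforms, in 41 of 147 genes. The part that read assignment between short, incomplete or overlapping models had in these values was not tested.

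Abundance followed usage. All 43 member isoforms that rose in usage had a higher mean TPM in BMP2, and 39 of the 41 that fell had a lower one. In the other genes it was 63 of 93 and 94 of 125. The narrow level window largely fixes the counts of the members. Among the member isoforms that rose, Gprasp1-205 (5.10 TPM in vehicle, 5.17 TPM in BMP2) and Ppp1r13l-201 (5.99 TPM and 6.17 TPM) were nearly equal in both conditions. The exceptions among those that fell were Papln-202 (10.8 TPM in vehicle, 11.2 TPM in BMP2) and Wwp2-201 (8.97 TPM and 9.69 TPM). Both belong to genes whose level was higher in BMP2. In 15 of the 27 members with several listed isoforms, these held at least 90% of usage in both conditions, so little of the gene's output lies outside the listed isoforms.

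**Figure D5:**
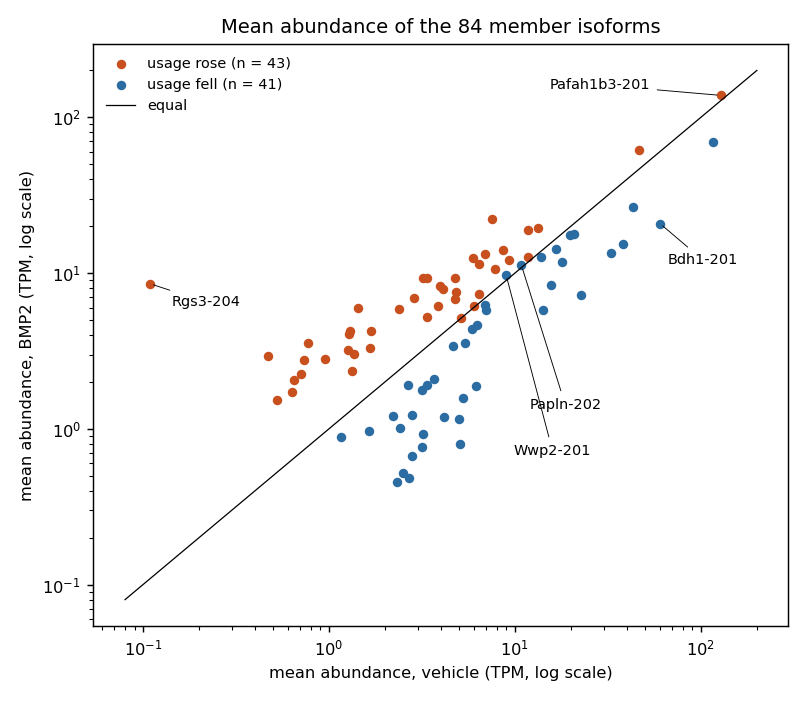
Mean abundance of the 84 member isoforms in vehicle (x axis) and in BMP2 (y axis), both in TPM on log scales, as means per condition with no error bars. Isoforms that rose in usage (43) lie above the line of equal abundance and those that fell (41) below it, except Papln-202 and Wwp2-201, and Rgs3-204 lies farthest from it (0.109 TPM in vehicle, 8.54 TPM in BMP2).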

How the data were processed

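RNA of mouse duodenal crypt organoids was sequenced in 6 libraries, 3 given vehicle and 3 given BMP2. Per the submitters' processing notes, kallisto 0.46.1 and the build mm39 were used; for the annotation release, the strand setting and the usage test nothing is given in the sources used here. The authors deposited 1 table of their comparison: usage as a fraction of the gene per condition, its difference, a q-value (adjusted p-value), and mean TPM per condition. No values of single libraries were analysed here, hence no test was run and no error computed; the authors' q-value stands in for the planned test.

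From this table, usage was turned into percent and an implied gene level computed (summed TPM over summed fraction). Members were kept at a log2 ratio from -0.5 to 0.5. The members, the gene lists and the rules were chosen with earlier results of these data known. The rule named the genes with the largest usage differences (12), those whose most used listed isoform differs, the 5 highest levels, up to 4 per gene list, the level window's edges and the 5 largest gains of a retained-intron or decay-annotated isoform; the other members were added so that each is accounted for, and *Papln*, *H2-Aa*, *Tnk2* and *Txlng* were picked as examples of structure after their values were seen.

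Isoforms were matched by transcript identifier, without its version, to GENCODE M21 (GRCm38), where all 84 were found; the deposited version was 1 step higher for 82 and 2 steps higher for 2, so exon bounds may differ slightly from those the authors used. Promoters came from a RefSeq table (GRCm38.p6), which held 45 of the 54 members by symbol. Scripts were run with Python 3.11.15 and pandas 2.3.3. Only the formula of the implied level was tried on simulated data, with fractions rounded as deposited, and the other steps were not.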

Additional observations from a re-analysis of the deposited data

How the results depend on the processing

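The counts over members were recomputed with other settings, and 45 of 67 recomputed values stayed within 1.5 times of the value reported; the causes of the rest were not tested beyond the fewer or more genes each setting keeps. With q under 0.01, members with a rise and a fall numbered 16 (27 in the report), moves from another class to coding 1 (4), and pairs with another start or end 14 (24). With a usage difference over 0.2 there were 24 members (54) and 34 isoforms (84), 8 members with a rise and a fall, 5 whose most used listed isoform differed (9), 4 moves from coding to another class (9), 1 the other way, 8 pairs with another start or end and 0 members in the gene lists (1). With a level window of -0.25 to 0.25 there were 23 members and 34 isoforms, 11 with a rise and a fall, 1 whose most used isoform differed, 3 and 2 moves between classes, and 10 pairs with another start or end. With a window of -0.75 to 0.75, the most used isoform differed in 14 genes and 2 were in the gene lists. Leaving out pairs with over 5% exonic overlap with another gene left 5 moves from coding to another class, with 4 the other way as before. Leaving out genes with an incomplete model, an alternative chosen after seeing the data, kept 43 members and left 0 in the gene lists. No paired analysis was possible because the table holds means per condition, and for the same reason no library could be left out in turn and no setting with a replicate block was run. Depth is unknown, so low-level members such as *Krt10*, *Gsdme*, *Prrg1* and A830036E02Rik carry no interval.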
